A study of Mus musculus with 12 samples.

Results

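The Ikaros family consists of 5 zinc finger transcription factors, encoded by Ikzf1 (Ikaros), Ikzf2 (Helios), Ikzf3 (Aiolos), Ikzf4 (Eos) and Ikzf5 (Pegasus). They were taken by gene symbol from the deposited count tables, which list 53656 genes. All 5 symbols were present, and each passed the filter on low counts that left 13383 genes for testing.

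Family proteins bind DNA through zinc fingers near one end of the protein and pair with each other through zinc fingers at the other end, so that members can act in joint complexes. Ikaros recruits chromatin remodelling and deacetylase complexes, mainly NuRD, and is needed for orderly lymphocyte development. Aiolos is best known from B cells and late thymocytes, Helios and Eos from regulatory T cells, and Helios also from thymocytes that receive strong receptor signals. Pegasus is the most distant member and is expressed in many tissues.

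RNA was sequenced in bulk from mouse thymocytes sorted as 2 immature single-positive populations, 3 libraries in each of 4 groups. The ImCD4 gate took CD44low, CD4+CD8-, H2-Kb-, CD69+ cells, and the ImCD8 gate CD44low, CD8+ CD4-, TCRb+, CD69+ cells. In every group both copies of Zfp148 and of Zfp281 are floxed (fl/fl). In the double knockout (dKO) groups a Cre transgene under Cd4 control (Cd4-Cre+) deletes both genes in developing T cells, while controls are Cd4-Cre negative, so an effect of Cre itself cannot be told apart from the loss of both genes. The sources used here give neither age nor sex of the mice, nor whether the libraries of a group come from different mice. The p-values therefore measure the spread between these libraries, part of which may be technical. For ImCD8 the genotype field is the reverse of the titles: the 3 libraries titled control carry the Cre-positive label and the 3 titled dKO the Cre-negative one. Groups here follow the titles, and so does every ImCD8 direction.

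The targeted genes checked the titles. Zfp148 measured 177 to 182 CPM (counts scaled to a common library size with TMM factors) in control ImCD4 and 63.0 to 68.9 CPM in dKO ImCD4, and 162 to 171 CPM against 45.6 to 62.8 CPM in the ImCD8 libraries. Zfp281 measured 441 to 562 against 16.2 to 21.4 CPM in ImCD4 and 112 to 128 against 10.2 to 14.9 CPM in ImCD8. In both populations no dKO library reached a control library of the same gate. Libraries held 7315833 to 10943143 gene counts. The third principal component (5.31% of variance) set replicate 3 of each group apart from the other 8 libraries, and results that rest on these 4 libraries are given with and without them. The sorted cells matched their gates in RNA: Cd4 was at 1090 to 1420 CPM in ImCD4 and 1.38 to 11.3 CPM in ImCD8, and Cd8a at 1610 to 1910 CPM in ImCD8 and 23.0 to 89.1 CPM in ImCD4, with the 2 lowest ImCD4 values in replicate 3 of each genotype. As these are bulk samples, fewer cells that express a gene and less RNA per cell cannot be told apart.

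Ikzf1 dominated the family. To set genes of different length side by side, levels were divided by kilobases of annotated exon, and the values depend on that length. Control ImCD4 cells had 97.1 ± 5.09 CPM per kilobase of Ikzf1 (SD, n = 3), 11.5 ± 1.75 of Ikzf3, 3.94 ± 0.817 of Ikzf2, 2.53 ± 0.0457 of Ikzf4 and 0.686 ± 0.0626 of Ikzf5. The order was the same in the other 3 groups. In dKO ImCD8 the neighbours Ikzf2 (6.56 to 11.0 CPM per kilobase) and Ikzf4 (4.50 to 6.80) overlapped, whereas no other neighbouring pair did in any group. The order also held with the length of the longest coding transcript in place of all annotated exons, although Ikzf3 then stood at 27.5 CPM per kilobase in control ImCD4, because its annotated exons span 8754 bases and its single coding transcript 3658.

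Ikzf1 lies on the plus strand of chromosome 11, 11685003 to 11772926 (mm10). Its level was 577, 578 and 527 CPM in the 3 control ImCD4 libraries and 581, 578 and 521 CPM in the 3 dKO ImCD4 libraries. In ImCD8 it was 564, 537 and 467 CPM in control and 572, 576 and 469 CPM in dKO. The 4 groups overlapped throughout, and in each of them replicate 3 was lowest. The dKO libraries stood at 0.999 of control in ImCD4 (95% interval 0.874 to 1.14, edgeR adjusted p = 0.995) and 1.03 of control in ImCD8 (log2 fold change 0.04, interval -0.15 to 0.24, adjusted p = 0.860). ImCD8 stood at 0.932 of ImCD4 in control cells (0.816 to 1.07, adjusted p = 0.384). In dKO cells the ratio was 0.962 (0.842 to 1.10, adjusted p = 0.662).

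Ikzf2 encodes Helios and lies on the minus strand of chromosome 1, 69531214 to 69687245. It was at 55.9, 44.0 and 37.2 CPM in control ImCD4 and at 47.6, 44.0 and 34.4 CPM in dKO ImCD4. In ImCD8 it was at 137, 136 and 86.8 CPM in control and at 115, 127 and 76.2 CPM in dKO. Every ImCD8 library was above every ImCD4 library, and within each group replicate 3 was again lowest. ImCD8 cells had 2.62 times the ImCD4 level in control (log2 fold change 1.39 ± 0.25, SE, edgeR adjusted p = 0.00105) and 2.53 times in dKO (1.34 ± 0.25, adjusted p = 0.00139). Without replicate 3 of every group the log2 fold changes were 1.45 ± 0.10 and 1.41 ± 0.10.

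Ikzf3 encodes Aiolos and lies on the minus strand of chromosome 11, 98464902 to 98546031. It measured 118, 96.5 and 88.0 CPM in control ImCD4 and 72.7, 97.9 and 67.6 CPM in dKO ImCD4. In ImCD8 it measured 264, 208 and 185 CPM in control and 140, 227 and 126 CPM in dKO. All ImCD8 libraries were above all ImCD4 libraries, and dKO replicate 2 was the one dKO ImCD8 library inside the control range. The ImCD8 level was 2.18 times the ImCD4 level in control (log2 fold change 1.12 ± 0.24, edgeR adjusted p = 0.00371) and 2.07 times in dKO (1.05 ± 0.24, adjusted p = 0.00580). Without replicate 3 of every group these were 1.14 ± 0.31 (adjusted p = 0.0424) and 1.11 ± 0.31 (0.0479).

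Ikzf4 encodes Eos and lies on the minus strand of chromosome 10, 128630843 to 128645991. It had 15, 15.5 and 15 CPM in control ImCD4, where the libraries were closest together, and 12.3, 11.1 and 17.2 CPM in dKO ImCD4. In ImCD8 it had 37.4, 37.6 and 34.0 CPM in control and 40.8, 33.9 and 26.9 CPM in dKO. The 2 populations did not overlap. ImCD8 had 2.39 times the ImCD4 level in control (log2 fold change 1.26 ± 0.16, edgeR adjusted p = 1.13e-05) and 2.51 times in dKO (1.33 ± 0.16, adjusted p = 7.24e-06). Without replicate 3 of every group the log2 fold changes were 1.30 ± 0.14 and 1.67 ± 0.13.

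Ikzf5 encodes Pegasus and lies on the minus strand of chromosome 7, 131388652 to 131410521. It had 22 to 58 counts per library, or 3.54 to 4.24 CPM in control ImCD4, 4.21 to 5.17 in dKO ImCD4, 2.34 to 3.52 in control ImCD8 and 3.30 to 4.42 in dKO ImCD8. In GENCODE M21, 81.3% of its exonic length overlaps exons of Pstk on the opposite strand, and Pstk itself had 86 to 150 counts per library. Whether reads from the shared stretch went to Ikzf5, to Pstk or to neither depends on the annotation and the strand setting of the counting, which no source used here gives. The level of Ikzf5 is therefore uncertain, and its place at the bottom of the family order with it. Among the other 4 genes the largest shared exonic stretch was 1.24% of Ikzf2, with a predicted antisense transcript.

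**Figure D1:**
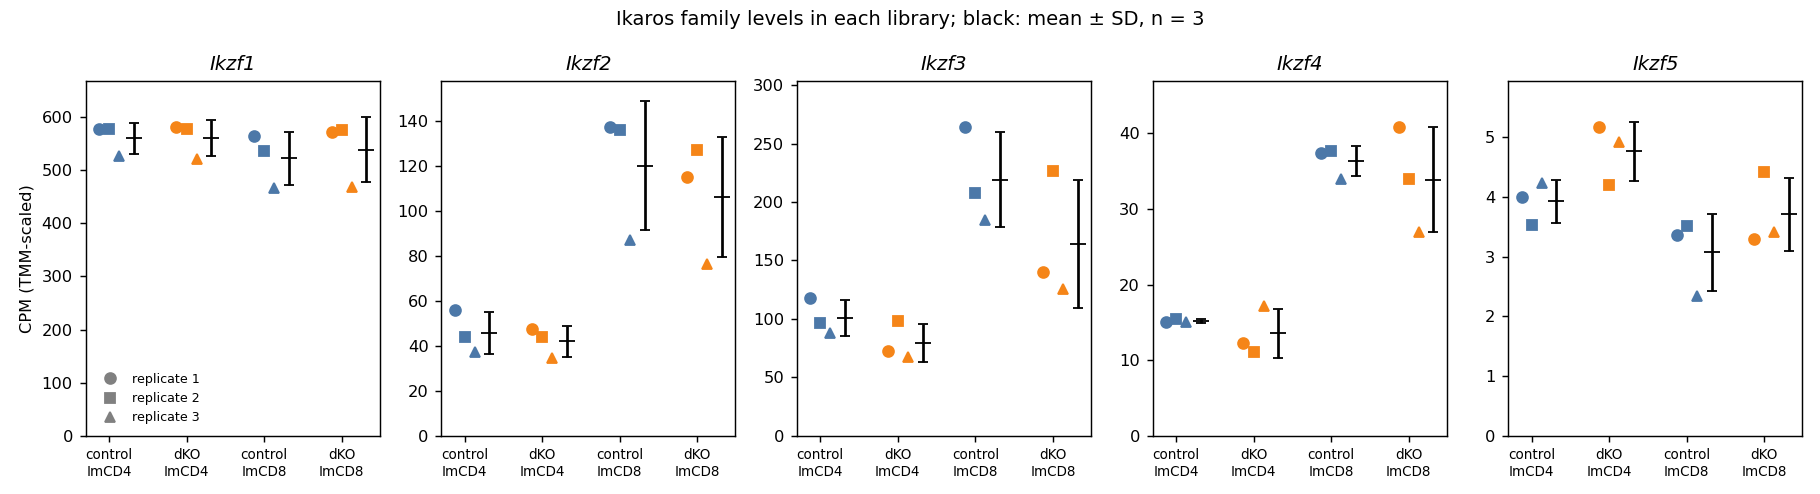
Level of each Ikaros family gene in the 12 libraries, in CPM on a linear axis that starts at 0 and is scaled separately for each gene; blue is control, orange dKO, the marker shape gives the replicate, and black bars give mean ± SD of 3 libraries. Ikzf2, Ikzf3 and Ikzf4 are higher in every ImCD8 library than in any ImCD4 library, while Ikzf1 stays between 467 and 581 CPM in all 12.

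The first comparison asks whether the family responds to the loss of Zfp148 and Zfp281. In ImCD4 none of the 5 genes passed the threshold (edgeR quasi-likelihood test, Benjamini-Hochberg adjusted p under 0.05), where 13.4% of all tested genes did. In ImCD8 again none passed, against 6.14% of tested genes. At an unadjusted p under 0.05 the count was also 0 in both populations, and DESeq2 and limma-voom called 0 as well. All 5 genes had control and dKO libraries that overlapped in both populations. The dKO and control libraries were without overlap for 33.8% of tested genes in ImCD4 and 21.8% in ImCD8.

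The precision differed between the genes. For Ikzf2 the 95% interval of the dKO to control ratio ran from 0.624 to 1.37 in ImCD4 and from 0.619 to 1.28 in ImCD8. For Ikzf4 it ran from 0.693 to 1.14 and from 0.745 to 1.16. For Ikzf5 it ran from 0.883 to 1.67 and from 0.869 to 1.73. For these 3 genes the data did not exclude a change inside those intervals, and the same holds for Ikzf1 and Ikzf3 with their own intervals. The width for Ikzf2 rested on replicate 3: without replicate 3 of every group its log2 fold change was -0.12 ± 0.11 in ImCD4 and -0.17 ± 0.10 in ImCD8 (edgeR adjusted p = 0.524 and 0.402). Ikzf2 and Ikzf3 varied more between replicates than the typical gene: their biological coefficients of variation were 20.3% and 20.2%, beside a median of 10.5% over tested genes. Those of Ikzf1, Ikzf4 and Ikzf5 were 8.57%, 12.6% and 11.9%.

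Ikzf3 had the lowest dKO to control ratio of the 5 genes in both populations, although without replicate 3 of every group Ikzf4 was lower in ImCD4 (log2 fold change -0.38 ± 0.15, edgeR adjusted p = 0.112, against -0.33 ± 0.32 for Ikzf3). With all libraries Ikzf3 stood at 0.789 of control in ImCD4 (95% interval 0.539 to 1.16, edgeR adjusted p = 0.415) and at 0.751 of control in ImCD8 (0.520 to 1.09, adjusted p = 0.405). Averaged over both populations the log2 fold change was -0.38 ± 0.17, with an unadjusted p of 0.0526 and an edgeR adjusted p of 0.168. No member passed for this average effect by edgeR, none at an unadjusted p under 0.05, against 17.7% of tested genes called. DESeq2 and limma-voom also called 0, each with 1 member at an unadjusted p under 0.05. With a term for the 4 libraries that stand apart, edgeR called 0 as well, with 2 members at an unadjusted p under 0.05 on average, 1 in ImCD8 and 0 in ImCD4. The shift of Ikzf3 was called only without dKO ImCD8 replicate 2, the library with 227 CPM: the log2 fold change was then -0.72 ± 0.19 in ImCD8 (adjusted p = 0.0498) and -0.52 ± 0.13 on average (adjusted p = 0.0168). Without control replicate 1 of the same population it was -0.21 ± 0.27 in ImCD4 and -0.26 ± 0.25 in ImCD8, and without dKO replicate 3 it was -0.24 ± 0.28 and -0.25 ± 0.25.

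The response was also compared between populations. No member differed in its dKO effect between ImCD8 and ImCD4 (edgeR, 0 called, 0 at an unadjusted p under 0.05, and 0 by DESeq2 and by limma-voom), against 0.433% of tested genes. The differences of the log2 fold changes lay between -0.07 (Ikzf3, 95% interval -0.83 to 0.69) and 0.07 (Ikzf4, -0.42 to 0.55).

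The second comparison asks how the family differs between the 2 immature populations. Only the ImCD4 gate used H2-Kb and only the ImCD8 gate used TCRb, so lineage and these gate differences cannot be told apart here. In control cells Ikzf2, Ikzf3 and Ikzf4 were higher in ImCD8, 3 of 5 genes, and Ikzf1 and Ikzf5 did not pass. For tested genes as a whole 45.3% passed, 23.1% higher and 22.1% lower in ImCD8. The median log2 fold change of the 5 genes was 1.12, beside -0.01 for all tested genes. In dKO cells the same 3 genes were higher, where 43.7% of tested genes passed, 22.1% higher and 21.6% lower, and the median was 1.05 beside 0.00. The control and dKO comparisons share no library. The 3 calls held in all 21 alternative settings in both genotypes, with log2 fold changes of 1.16 to 1.58 for Ikzf2, 0.72 to 1.25 for Ikzf3 and at most 1.67 for Ikzf4.

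The libraries of the 2 populations did not overlap for Ikzf2, Ikzf3 and Ikzf4 in either genotype. In control cells 56.4% of tested genes were without overlap, 28.8% higher and 27.6% lower in ImCD8, and in dKO cells 51.8%, with 25.6% higher. For Ikzf5, control ImCD8 libraries were below all control ImCD4 libraries, without passing the test (log2 fold change -0.36 ± 0.23, edgeR adjusted p = 0.217).

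**Figure D2:**
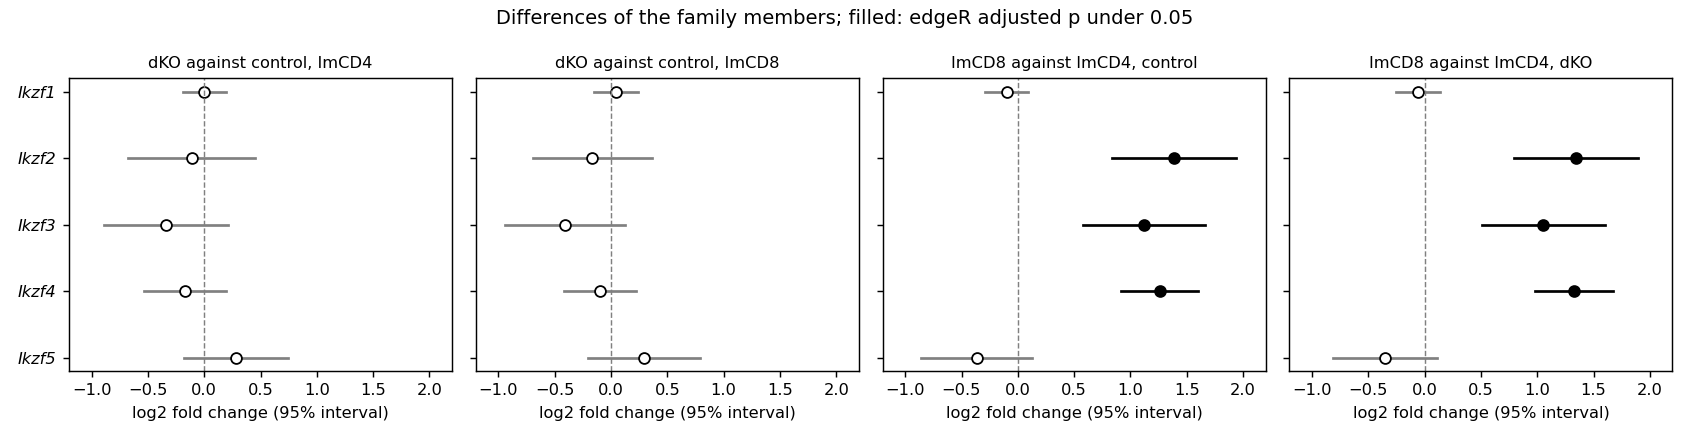
Log2 fold changes of the 5 genes with 95% intervals in 4 comparisons, filled where the edgeR adjusted p is under 0.05. The intervals of all 5 genes include 0 in both dKO comparisons, and those of Ikzf2, Ikzf3 and Ikzf4 lie above 0 in both comparisons of ImCD8 with ImCD4.

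The make-up of the family pool differed between the populations, and the difference in its size depended on the gene length used. Summed over the 5 genes, the level was 116 ± 7.14 CPM per kilobase in control ImCD4, 113 ± 7.06 in dKO ImCD4, 132 ± 15.7 in control ImCD8 and 128 ± 18.4 in dKO ImCD8 (SD, n = 3). By an exact permutation test, two-sided, p was 0.3 for ImCD8 against ImCD4 in control and in dKO, 0.5 for dKO against control in ImCD4 and 0.6 in ImCD8. With 3 libraries against 3, the smallest p this test can give is 0.1. With the longest coding transcript as length, the sum was 134 to 154 CPM per kilobase in control ImCD4 and 158 to 204 in control ImCD8, without overlap (exact permutation p = 0.1), and 128 to 147 against 139 to 195 in dKO (exact permutation p = 0.3).

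Ikzf1 made up 82.3% to 84.8% of the sum in control ImCD4, and 66.7% to 70.0% in control ImCD8 (exact permutation p = 0.1, no overlap). The share of Ikzf3 was 9.33% to 11.1% in control ImCD4 and 17.6% to 20.6% in control ImCD8. The share of Ikzf2 went from 2.97% to 3.97% up to 6.46% to 8.64%, and that of Ikzf4 from 2.06% to 2.33% up to 4.26% to 4.91%, each without overlap and with an exact permutation p of 0.1. In dKO cells Ikzf1 made up 85.1% to 86.7% in ImCD4, just above the control range (exact permutation p = 0.1), and 69.7% to 75.7% in ImCD8, which overlapped the control range (exact permutation p = 0.2). These shares depend on the length assigned to each gene. With the longest coding transcript, the share of Ikzf1 was 72.7% to 76.2% in control ImCD4, 76.4% to 79.8% in dKO ImCD4, 53.5% to 57.4% in control ImCD8 and 57.2% to 65.2% in dKO ImCD8.

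**Figure D3:**
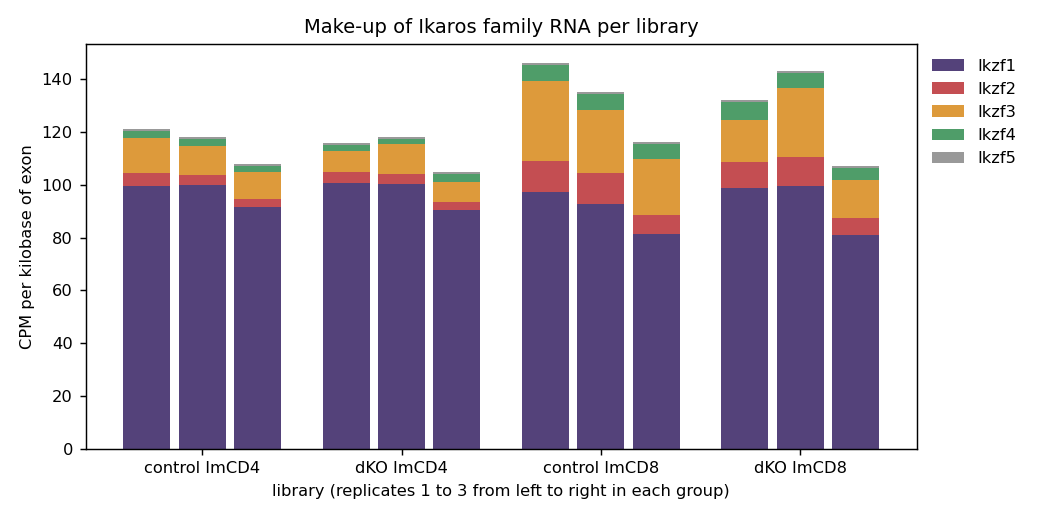
Stacked bars of the 5 family genes in each library, in CPM per kilobase of annotated exon, with replicates 1 to 3 of each group from left to right. The Ikzf1 block is the largest in all 12 libraries, and the blocks of Ikzf2, Ikzf3 and Ikzf4 are taller in the 6 ImCD8 libraries.

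Genes with the most similar pattern were sought for each member, by Pearson correlation of log2 CPM over the 12 libraries among 8905 genes with a mean of at least 5 CPM (8906 for Ikzf5). The 12 libraries share 4 groups and the displacement of replicate 3, so the correlations are descriptions only. Ikzf2 was closest to Kif22 (0.987), Bub1b (0.982) and Cdc20 (0.977), which encode a mitotic kinesin, a spindle checkpoint kinase and the activator of the anaphase-promoting complex. Ikzf4 was closest to Polh (0.978), a DNA polymerase gene, Hells (0.977), a chromatin remodeller gene of replicating cells, and the tubulin gene Tuba1b (0.969). Ikzf3 was closest to the small GTPase gene Ralb (0.958), the cytokinesis kinase gene Cit (0.942) and Frmd4b (0.932). Ikzf1 was closest to Plxdc2 (0.918), Wdr11 (0.917) and Glce (0.912), and Ikzf5 to Slc52a2 (0.903), Slc25a44 and Dfna5 (0.887 each).

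The values of Bub1b show the likeness for which these genes were chosen. Bub1b had 5.30, 4.31 and 3.07 CPM in control ImCD4 and 35.6, 42.8 and 17.1 CPM in control ImCD8. In dKO it had 5.80, 4.21 and 4.06 CPM in ImCD4 and 22.9, 24.5 and 14.4 CPM in ImCD8. As with Ikzf2, replicate 3 was lowest in all 4 groups, while for Cdc20 it was lowest in 3. Replicate 3 was lowest in all 4 groups for 1087 tested genes (8.12%), Ikzf1, Ikzf2, Ikzf3, Bub1b and Kif22 among them. The part of such mitotic RNA in the population difference of Ikzf2 was not tested.

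**Figure D4:**
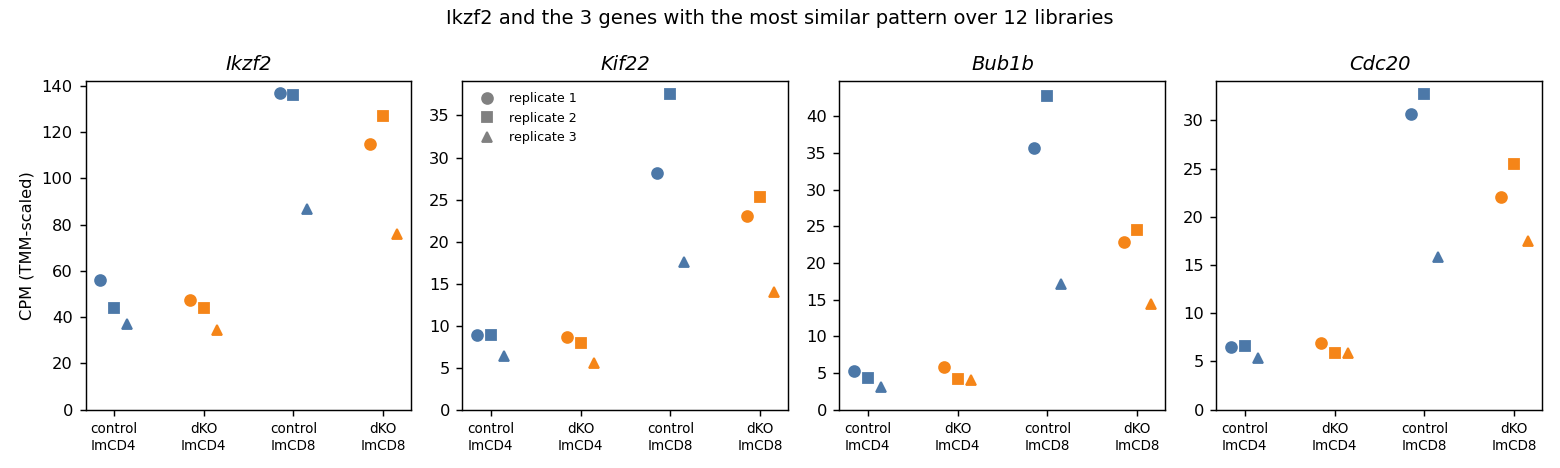
Levels of Ikzf2 and of the 3 genes most like it, in CPM by group, with blue for control, orange for dKO and marker shape for the replicate; each axis starts at 0. All 4 genes are higher in every ImCD8 library than in any ImCD4 library, and replicate 3 is the lowest ImCD8 library of each genotype.

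Markers of other cells that express family genes were set beside these levels. The summed level of 8 B cell markers was 72.1 to 95.6 CPM in control ImCD4 and 64.3 to 91.3 in dKO ImCD4. In ImCD8 it was 310 to 402 in control and 365 to 497 in dKO, and thus higher, as Ikzf2, Ikzf3 and Ikzf4 were. Nearly all of it was Ighm, at 68.4 to 89.8 CPM in control ImCD4 and 298 to 387 CPM in control ImCD8. Ms4a1 and Pax5, which are typical of B cells, had at most 1 count each in any group of 3 libraries. Cd79b, a B cell receptor component gene, had 1.59 to 3.43 CPM in control ImCD4, 3.74 to 6.32 in dKO ImCD4, 8.18 to 11.7 in control ImCD8 and 20.1 to 34.0 in dKO ImCD8, and its part and that of Ighm in the level of Ikzf3 were not tested. The sum of 8 myeloid and dendritic markers was 66.7 to 91.4 CPM over all libraries, and that of 6 NK and innate lymphoid markers 16.6 to 47.6 CPM, with Ncr1 at 0 in all 4 groups. The sum of these 6 was 18.1 to 31.9 CPM in control ImCD4 and 30.5 to 36.1 CPM in control ImCD8. Eomes was at 0.318 to 0.824 CPM in control ImCD4 and 3.38 to 11.0 CPM in control ImCD8. In dKO, Eomes was at 0.107 to 0.714 and 2.85 to 4.09 CPM. Klrk1 was at 0 in control ImCD4 and at 0.845 to 7.97 CPM in control ImCD8. In dKO, Klrk1 was at 0 and 0.227 to 1.02 CPM. Rora, the highest of the 6, was at 17.6 to 30.6 CPM in control ImCD4 and 17.2 to 27.3 CPM in control ImCD8. Klrb1c and Zbtb16 had at most 5 counts each in either control group. The part of such cells in the levels of Ikzf2, Ikzf3 and Ikzf4 was not tested. The sum of 5 gamma-delta markers was 29.4 to 31.9 CPM in control ImCD4, 193 to 303 in dKO ImCD4, 15 to 17.0 in control ImCD8 and 23.8 to 25.9 in dKO ImCD8. One gene carried the ImCD4 values: Sox13 measured 18.8 to 21.6 CPM without the deletion and between 178 and 285 CPM with it. The receptor gene Trdc was at 7.21 to 11.2 and 10.1 to 12.3 CPM. Tcrg-C1, the other receptor gene of the list, was higher with the deletion, at 2.39 to 7.06 CPM against 0.318 to 0.471 CPM. The sum of 7 thymic epithelial markers was 43.1 to 66.5 CPM in ImCD4 and 125 to 141 CPM in ImCD8, and thus also moved with Ikzf2, Ikzf3 and Ikzf4. Ly75 was most of the sum in control ImCD8, at 84.4 to 88.2 CPM, and stood at 20.6 to 31.5 CPM in control ImCD4. Epcam was at 3.92 to 4.59 CPM in control ImCD4 and 8.29 to 9.58 CPM in control ImCD8. The defining genes Foxn1 and Psmb11 had at most 4 counts in any group of 3 libraries. The sum of 6 erythroid and platelet markers was 0 to 20.4 CPM and that of 11 T cell markers 8620 to 12400 CPM.

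Regulatory T cells are the best known source of Helios and Eos, and their genes were unequal between the populations. The summed level of 11 such genes was 515 to 579 CPM in control ImCD4 and 278 to 363 CPM in control ImCD8. Of the 10 tested genes 3 were higher and 6 lower in control ImCD8 (23.1% and 22.1% of all tested genes). Foxp3, the defining factor, had 0.212 to 0.236 CPM in control ImCD4 and 1.01 to 3.08 CPM in control ImCD8, a total of 6 and 55 counts over 3 libraries. Foxp3 thus moved with Ikzf2 and Ikzf4 between the populations (log2 fold change 3.20 ± 0.58, edgeR adjusted p = 0.000291 in control, and 2.05 ± 0.49, 0.00305 in dKO). The other two higher genes, named after their values were seen, were Ctla4 (0.86 ± 0.22) and the costimulatory receptor gene Tnfrsf9 (0.91 ± 0.23), neither of which passed in dKO cells (adjusted p = 0.296 and 0.708; Tnfrsf9 was called there in 2 alternative settings). Lower in control ImCD8 were Tnfrsf4 (-4.26), Nrp1 (-2.60), Gpr83 (-1.50), Izumo1r (-1.17), Il2ra (-0.82) and Tnfrsf18 (-0.72), as log2 fold changes. In dKO cells these were again called lower, except Il2ra (edgeR adjusted p = 0.0507). The part of regulatory T cell RNA in the difference of Ikzf2 and Ikzf4 was not tested. In ImCD4, 5 of 10 tested genes of the list rose in dKO and none fell (7.26% and 6.16% of all tested genes), with a median log2 fold change of 0.78 beside 0.02 over all tested genes. The folate receptor-like gene Izumo1r rose from 152 ± 8.37 to 279 ± 63.3 CPM (log2 fold change 0.87 ± 0.14, edgeR adjusted p = 0.00150). The inhibitory receptor gene Ctla4 rose from 3.64 ± 0.247 to 8.19 ± 1.70 CPM and the semaphorin receptor gene Nrp1 from 14.4 ± 2.26 to 23.0 ± 2.70 CPM. In ImCD8 only Nrp1 rose, from 2.37 ± 0.335 to 5.62 ± 0.680 CPM, and none fell of the 10 (2.62% and 3.53% of all tested genes). Foxp3 itself did not pass for dKO against control in either population (edgeR adjusted p = 0.426 and 0.875).

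While the family's own RNA did not pass, several genes of the complexes that Ikaros recruits did. Of 19 genes of the NuRD, Sin3, CtBP and SWI/SNF complexes 18 were tested, and in ImCD4 3 rose and 5 fell in dKO, with a median log2 fold change of 0.01 beside 0.02 for all tested genes, of which 7.26% rose and 6.16% fell. In ImCD8 none rose and 4 fell, with a median of -0.09 beside 0.01, where 2.62% of all tested genes rose and 3.53% fell. The ImCD4 count was 2 higher and 3 lower both without control replicate 2 and without dKO replicate 3, and the ImCD8 count was 2 lower in the smallest of the alternative settings. Chd3, which encodes one of the remodelling motors of NuRD, fell from 285, 271 and 370 CPM to 22.9, 17.2 and 28.2 CPM in ImCD4, and from 169, 164 and 194 CPM to 9.27, 7.54 and 4.21 CPM in ImCD8. Mta3, a NuRD subunit gene, fell by 1.04 ± 0.14 on the log2 scale in ImCD4 (edgeR adjusted p = 0.000156) and by 0.97 ± 0.13 in ImCD8 (0.000235). The changes of the others were smaller: Gatad2b fell in both populations, by 0.39 ± 0.08 and 0.29 ± 0.08 (the ImCD8 call was lost in 13 of 21 alternative settings), and Gatad2a (0.35 ± 0.07), Mta1 (0.33 ± 0.07) and Mbd3 (0.32 ± 0.09) rose in ImCD4; the call of Mbd3 was lost in 4 settings. Smarca4, the SWI/SNF motor gene, also fell in ImCD4, by 0.27 ± 0.07 (adjusted p = 0.0138, lost in 3 settings, up to 0.0637), and did not pass in ImCD8 (0.394). Smarca4 and Chd4 were chosen for mention after their values were seen. Chd4, the motor protein gene that is the main partner of Ikaros in thymocytes, had 335, 338 and 298 CPM in control ImCD4 and 268, 267 and 266 CPM in dKO ImCD4, a fall of 0.28 ± 0.08 (adjusted p = 0.0217, and up to 0.0942 without single ImCD4 libraries), and did not pass in ImCD8 (-0.13 ± 0.08, adjusted p = 0.402). The deacetylase gene Hdac2 fell in ImCD8 by 0.33 ± 0.08 (adjusted p = 0.0165, lost in 5 settings).

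Cereblon, encoded by Crbn, is the ligase subunit that in human cells marks Ikaros and Aiolos for degradation in the presence of thalidomide-type drugs. Of 5 genes of this ligase 1 fell in dKO ImCD4, where 6.16% of all tested genes did, and none passed in ImCD8, where 6.14% did. Crbn itself stood at 101 ± 6 CPM in control ImCD4 and at 112 ± 5.39 CPM in dKO ImCD4 (edgeR adjusted p = 0.290) and 87.5 ± 2.08 and 86.2 ± 11.1 CPM in ImCD8 (0.947). The one called gene, the scaffold gene Cul4b, went from 61.5 ± 5.29 to 51.4 ± 2.06 CPM in ImCD4 (adjusted p = 0.0498), and this call was lost in 16 of 21 alternative settings.

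Genes that Ikaros is known to regulate in lymphocytes moved in both directions. Of 18 such genes 13 were tested, and in ImCD4 2 rose and 2 fell in dKO, while in ImCD8 1 rose and 1 fell, against 7.26% and 6.16% of all tested genes in ImCD4 and 2.62% and 3.53% in ImCD8. The median log2 fold changes were 0.26 and 0.04, beside 0.02 and 0.01 for all tested genes. Without dKO ImCD4 replicate 3 the ImCD4 count was 1 higher and 0 lower. Dntt, which encodes the terminal transferase that adds bases at receptor gene joints, was higher in all dKO libraries: 58.6, 45.2 and 42.3 CPM in control against 87.5, 86.2 and 78.7 CPM in dKO ImCD4, and 50.8, 47.5 and 34.0 CPM against 120, 106 and 91.0 CPM in ImCD8. The log2 fold change of Dntt was 0.79 ± 0.15 in the first population and 1.26 ± 0.15 in the second (edgeR adjusted p = 0.00383 and 0.000204). Notch3 fell in ImCD8, from 16.7, 12.7 and 10.5 CPM to 2.79, 2.02 and 1.25 CPM (log2 fold change -2.72 ± 0.28, adjusted p = 1.66e-05). In ImCD4, Myc rose by 0.74 ± 0.17, and the cell cycle inhibitor gene Cdkn1b and the cytokine receptor gene Il7r fell by 0.33 ± 0.09 and 0.37 ± 0.11; these 3 calls were lost in 2, 5 and 6 of the alternative settings. The recombinase genes Rag1 and Rag2 and the coreceptor genes Cd4, Cd8a and Cd8b1 did not pass in either dKO comparison. For Cd4 the log2 fold change was 0.31 ± 0.20 in ImCD4 and 1.32 ± 0.41 in ImCD8 (edgeR adjusted p = 0.364 and 0.0953). Averaged over both populations Cd4 rose by 0.81 ± 0.23 (edgeR adjusted p = 0.0322), where 17.7% of all tested genes passed. Of the 10 genes of strong receptor signals, a setting in which Helios is induced, Cd5 fell in dKO ImCD4 by 0.73 ± 0.14 (adjusted p = 0.00367) and the other 9 did not pass. None of the 10 passed in ImCD8, and the list's medians were -0.16 and -0.17.

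Zfp148 and Zfp281 bind G-rich DNA. The word GGGGAGGG was searched on both strands in the 250 bases before each RefSeq start site (GRCm38.p6). It was in 9.69% of 32851 promoters, and in none of the 3 listed windows of the family, 2 for Ikzf1 and 1 for Ikzf5. The search says only that these letters are not in those windows.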

How the data were processed

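RNA of sorted thymocytes was sequenced in 12 libraries, 3 per group. The submitters' processing notes name cutadapt 1.18, STAR 2.6.1, HTSeq and mm10. The deposited values are raw counts per gene symbol; 5 summary rows stayed out of library sizes (reads outside genes were 10.5% to 16.4%). Members and gene lists were chosen with earlier results of these data known.

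The count analysis used edgeR 4.0.16 (R 4.3.3): filterByExpr (minimum count 10, minimum total 15), TMM scaling, and 1 robust quasi-likelihood fit of 4 group means over 12 libraries (8 residual degrees of freedom). All tests are two-sided; Benjamini-Hochberg adjustment ran over 13383 genes, with a threshold of 0.05. Intervals are 95%, from the SE. Positions and exon lengths come from GENCODE M21, and levels per kilobase divide CPM by the union of annotated exons. The fit was tested on simulated counts with known fold changes in dKO ImCD4. These counts held no displacement of replicate 3.

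Alternatives were RLE or no scaling, DESeq2 1.42.0, limma-voom (limma 3.58.1) with quality weights, no filter, over 5 CPM in 3 libraries, only the libraries compared, each library left out, replicate 3 of every group left out, and a term for those 4. Another gene length was added after the data were seen. Replicate pairs differed by more than counting noise (lowest chi-square over its degrees of freedom 3.84). Named genes are the 5 members, the targeted genes, the 3 genes most correlated with each member, and up to 3 called genes per list, direction and dKO comparison with the smallest p. The level of 1 marker gene is not reported here.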

Additional observations from a re-analysis of the deposited data

Results flagged for a closer look

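Notch3, a receptor gene that Ikaros is known to restrain, had a dKO effect that differed between the populations. The log2 fold change was -2.72 ± 0.28 in ImCD8 and -0.63 ± 0.30 in ImCD4, a difference of -2.10 ± 0.42 (edgeR adjusted p = 0.0342, 0.433% of tested genes called). Control ImCD8 libraries had 10.5 to 16.7 CPM and control ImCD4 libraries 2.59 to 4.97 CPM, while dKO libraries of both populations lay between 1.25 and 2.79 CPM. All 3 dKO libraries were below all 3 controls in each population. Of all tested genes, 33.8% in ImCD4 and 21.8% in ImCD8 were without overlap in either direction. In ImCD4 the closest libraries were at 2.57 CPM in dKO and 2.59 CPM in control. The ImCD4 effect did not pass (edgeR adjusted p = 0.190). The difference between the populations ran from -2.37 to -1.86 over 20 alternative settings and was not called in 10 of them. Of these 10, 9 leave out a single library and 1 replicate 3 of every group (highest edgeR adjusted p = 0.0984).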

How the results depend on the processing

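No paired analysis was possible because the libraries carry no replicate number shared between groups; replicates were numbered in deposit order. The calls of Ikzf2, Ikzf3 and Ikzf4 between populations held in all 21 settings. With 1 library left out, the number of members called ran from 0 to 1 for dKO in ImCD8 and for the average dKO effect, with 1 only without dKO ImCD8 replicate 2. Over the 5 gene lists 19 of 55 tested genes were called in dKO ImCD4, where 13.4% of all tested genes were. With 1 library left out the list count ran from 12 to 20. The 12 came without control ImCD4 replicate 2 and without dKO ImCD4 replicate 3. In those settings 8.78% and 10.8% of all tested genes were called.

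Values near 0 changed sign with 1 library left out, and no value with a changed sign passed the threshold. In dKO ImCD4, Ikzf1 ran from -0.04 to 0.05 (log2; 0 by limma-voom, 0.01 without replicate 3 of every group) and Ikzf2 from -0.24 to 0.06. In dKO ImCD8, Ikzf1 ran from -0.03 to 0.14, Ikzf2 from -0.36 to 0.02 and Ikzf4 from -0.25 to 0.04. For the difference of dKO effects, Ikzf1 ran from -0.03 to 0.13, Ikzf2 from -0.25 to 0.13, Ikzf3 from -0.40 to 0.11, Ikzf4 from -0.09 to 0.27 and Ikzf5 from -0.16 to 0.11 (-0.13 without replicate 3 of every group). Ikzf1 ran from -0.13 to 0.04 for ImCD8 against ImCD4 in dKO and from -0.02 to 0.07 for the average dKO effect, and Tnfrsf9 from -0.08 to 0.37 for ImCD8 against ImCD4 in dKO. The cause was not tested. Ikzf5 was not tested under the filter of over 5 CPM in 3 libraries, which it does not reach.

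Counts over all genes moved by more than 1.5 times in some settings. In dKO ImCD4 1797 genes were called, 1055 without dKO replicate 2 and 1086 without control replicate 1. In dKO ImCD8 822 were called, 473 without control replicate 1, 1280 with no filter and 1420 with a term for the 4 libraries. For the difference 58 were called, 139 by DESeq2, 233 with no filter, 106 without replicate 3 of every group and 200 with the term. At 22 to 58 counts per library, depth limits Ikzf5 most.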

Other observations

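Genes of strong receptor signals ran against Ikzf2 between the populations. Of 10 such genes 2 were higher and 7 lower in control ImCD8 than in control ImCD4 (23.1% and 22.1% of all tested genes), with a median log2 difference of -0.91 beside -0.01 for all tested genes. In dKO cells the counts were again 2 higher and 7 lower (22.1% and 21.6% of all tested genes), with a median of -0.88. Among the Ikaros-regulated genes, 6 were higher and 4 lower in control ImCD8, and 5 higher and 2 lower in dKO ImCD8. In both genotypes genes of the sorting gates were among them, Cd8a and Cd8b1 on the higher side and Cd4 on the lower.

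Within groups the members varied together to unequal degrees. Deviations of log2 CPM from the group means correlated at 0.944 between Ikzf1 and Ikzf2, 0.706 between Ikzf1 and Ikzf3 and 0.729 between Ikzf2 and Ikzf3 over the 12 libraries, and at 0.251, 0.172 and -0.104 between Ikzf4 and these 3 genes. The low position of replicate 3 in Ikzf1, Ikzf2 and Ikzf3 is shared by these values.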
